A study of Mus musculus with 20 samples.

Results

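Pancreatic islets of adult male mice lacking Cpeb1 in the whole body were compared with islets of control males, gene by gene, on all autosomes. The comparison used every male library of the whole-body line, 6 of the 20 libraries of the study, and tested 16798 autosomal genes among the 17440 genes with enough counts, out of 55416 listed. The 3 knockout males (Cpeb1 KO/KO, aged 155, 111 and 139 days) and the 3 control males (Cpeb1 +/+, aged 123, 122 and 111 days) were C57BL/6J mice of batch 1, and each library came from 1 animal. Islets were freed with collagenase and purified on a Histopaque gradient, and poly(A) RNA was sequenced. The knockout allele was carried by all tissues, by islet cells and by the cells that travel with them, and how the allele was made was not given in the sources used here.

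CPEB1 is an RNA-binding protein that recognises the cytoplasmic polyadenylation element (CPE), a U-rich motif near the end of an mRNA, and recruits enzymes that lengthen or shorten the poly(A) tail. Through the tail it silences or activates translation, and it is best known from oocytes and neurons. Counting poly(A) RNA measures mRNA abundance, so a change in translation alone would not be seen. Islets consist mainly of insulin-producing beta cells, with glucagon-producing alpha cells, somatostatin-producing delta cells, vessels, nerve endings and resident immune cells, and an isolate also carries some exocrine acinar tissue.

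Total counts lay between 85900719 and 112320368 per library. The ribosomal RNA gene Rn18s took 7.49% of the counts in knockout male 3. Among the other whole-body male libraries its highest share was 2.05%, in knockout male 1. Ins1 and Ins2, the insulin genes, took 24.6% to 28.7% of the counts, and the 28 beta cell identity genes summed to 298591 to 329159 CPM, which stands for counts scaled to library size with TMM factors, in knockout and 266514 to 315328 CPM in control males, so the defining markers of islets were abundant in every library. Knockout males 1 and 3 stood apart from the other 4 libraries by mRNAs of small intestinal epithelium. Rbp2, the retinol-binding protein of enterocytes, had 90.3, 0.23 and 190 CPM in knockout males 1 to 3 and 0.13 to 0.28 CPM in controls, and Fabp2, the intestinal fatty acid-binding protein, had 109, 0.012 and 246 CPM against 0.031 to 0.052 CPM. Of 33 intestinal genes, 23 in knockout male 1 and 24 in knockout male 3 exceeded 10 times the highest control, and 0 did in knockout male 2. In all, 60 tested autosomal genes had at least 1 CPM in both of these knockout males and at least 10 times the highest of the other 4 libraries. Knockout male 1 also held the most Igha, the heavy chain of the antibody of mucosal plasma cells, at 4165 CPM against 1.64 to 724 CPM in the other 5. Results are therefore given per library, so that knockout male 2 can be read alone.

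**Figure D1:**
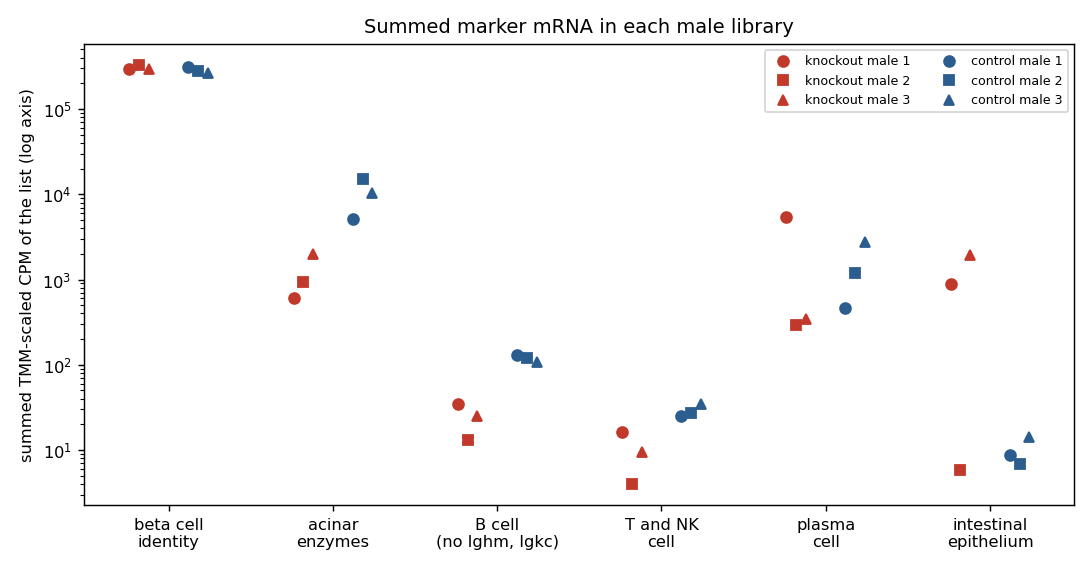
Summed expression of marker genes in each male library, in TMM-scaled CPM on a log axis. Each point is 1 library, red for knockout and blue for control males. The acinar sum, the T and NK cell sum and the B cell sum without Ighm and Igkc were lower in all 3 knockout libraries than in any control, while the intestinal sum was high in knockout males 1 and 3 only, at 876 and 1945 CPM. Vil1, Anpep, Mttp and Dpp4, which islets also express, were left out of the intestinal sum. The plasma cell sum includes Xbp1, which had 260 to 313 CPM in every library.

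Cpeb1, the targeted gene, was lower in every knockout library than in any control, but its signal was not lost, with a mean of 32.5 ± 5.34 CPM against 63.1 ± 4.95 CPM in controls (SD, n = 3 each). The gene lies at chr7:81347026-81455465 in GRCm38 and is read from the minus strand. Knockout males 1 to 3 had 29.4, 38.7 and 29.5 CPM and control males 62.3, 58.6 and 68.4 CPM. The groups did not overlap, and knockout male 2 was the highest of its group. The log2 fold change was -0.95 (SE 0.13) with an adjusted p of 0.102 in edgeR's quasi-likelihood test, so it did not pass the threshold of 0.05. Over the alternatives the adjusted p ran from 3.61e-08 to 0.554, and DESeq2 called the gene. Counts are summed over the whole gene, so the exons that the remaining reads covered were not resolved. Other CPEB family genes overlapped between the groups. Cpeb2 had a log2 fold change of 0.00 (SE 0.14), Cpeb3 of -0.17 (SE 0.15) and Cpeb4 of -0.11 (SE 0.13).

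Across the autosomes 8 genes were called at an adjusted p under 0.05, which is 0.0476% of those tested. Aldh1a3 and the noncoding RNAs 2900076A07Rik and Gm34225 rose (3 genes, 0.0179%), and Blk, Cd37, Syk, Try5 and the pseudogene Gm6969 fell (5 genes, 0.0298%). At an unadjusted p under 0.05 there were 1376 genes (8.19%), of which 630 (3.75%) were higher and 746 (4.44%) lower in knockout males. For 979 genes (5.83%) all knockout libraries lay above all controls, and for 1199 (7.14%) they all lay below. The median log2 fold change over all autosomal genes was 0.003. With 3 animals a group the list of calls was fragile: without control male 1 or control male 3 no gene was called (828 and 1091 at an unadjusted p under 0.05), without control male 2 only Try5 was, and without knockout male 3 the count was 7, of which only Gm6969 was among the 8. Without knockout male 1 the count was 39 and without knockout male 2 it was 492, and both fits kept all 8 genes. Of the 421 genes called higher without knockout male 2, 247 were more than 10 times higher in knockout males 1 and 3 than in knockout male 2, and 358 were no higher there than in the controls.

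**Figure D2:**
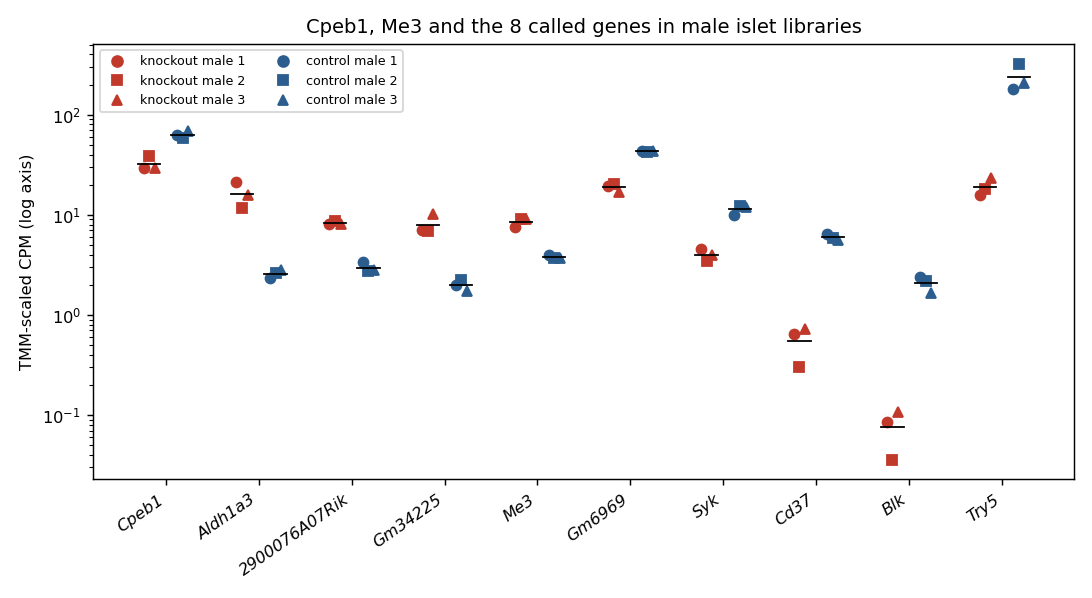
Cpeb1, Me3 and the 8 called genes in each male library, in TMM-scaled CPM on a log axis. Red points are knockout and blue points control males, marker shapes give the animal number, and black lines are group means. For each of the 10 genes the knockout libraries lie on one side of all controls, with Gm6969 between 16.7 and 20.4 CPM in knockout and between 42.5 and 43.9 CPM in control males.

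Aldh1a3 encodes a retinaldehyde dehydrogenase that makes retinoic acid and appears in beta cells that lose their mature state, for which it serves as a marker. Knockout males 1 to 3 had 21.3, 11.6 and 15.8 CPM and control males 2.35, 2.63 and 2.80 CPM. All 3 knockout libraries were far above the controls, and knockout male 2, which held almost no intestinal mRNA, was still 4.48 times the control mean. The means were 16.2 ± 4.88 and 2.59 ± 0.22 CPM (SD, n = 3 each), a log2 fold change of 2.65 (SE 0.23, edgeR adjusted p = 0.0400). The knockout male with the least Aldh1a3 was also the youngest, at 111 days, and the oldest, at 155 days, had the most, while the control of 111 days had 2.80 CPM. With age as a covariate the gene was among 83 called, against 8 without it. Knockout males 1 and 3, at 155 and 139 days, were older than every control, at 111 to 123 days. Age and genotype therefore cannot be told apart in these animals.

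Among 22 tested genes of dedifferentiated or immature beta cells Aldh1a3 was the only one called, and the median log2 fold change was 0.03 against 0.003 over all genes. At an unadjusted p under 0.05, 4 were higher and 1 lower, against 3.75% and 4.44% over all genes. For 5 all knockout libraries lay above all controls and for 0 below, against 5.83% and 7.14% over all genes. Gc, the vitamin D-binding protein, had 206, 215 and 205 CPM in knockout and 161, 168 and 157 CPM in control males, and the groups did not overlap (log2 fold change 0.36, edgeR adjusted p = 0.231). Chgb, a granule protein, was at 0.33 (edgeR adjusted p = 0.331), and Npy, a neuropeptide of immature beta cells, was at -1.18 with overlapping groups.

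Among 33 tested genes of retinoid metabolism and signalling, Aldh1a3 was the only one called, and the list's median was 0.05. At an unadjusted p under 0.05 stood 5 higher and 5 lower genes, against 3.75% higher and 4.44% lower over all genes. Rbp2 and Lrat, which binds retinol to its storage esters, were among the higher at 8.76 and 3.42, and Rbp2 was high only in the 2 knockout libraries with intestinal mRNA. In knockout male 2 alone Lrat was at -2.93 against the controls. Bco1, which cleaves beta-carotene to retinal, had 14.7, 12.5 and 10.5 CPM in knockout and 8.96, 9.28 and 8.83 CPM in control males. Those groups did not overlap, and the log2 fold change was 0.48 (SE 0.13, edgeR adjusted p = 0.426). Rara, a retinoic acid receptor, was at -0.52 and Ret, a receptor tyrosine kinase induced by retinoic acid, at -0.45, neither of which passed.

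Most genes of B cells were at lower levels in knockout males than in any control. Of 20 B cell genes tested, 20 had a negative log2 fold change, 18 had knockout values below every control, 15 reached an unadjusted p under 0.05 and 2 were called, Blk and Cd37. The median over the list was -3.75. Over all genes 4.44% were lower at that unadjusted p, and 7.14% had knockout values below every control. In bulk RNA fewer B cells and less RNA per B cell cannot be told apart. The sum of all 20 overlapped between the groups, with 2108, 19.4 and 268 CPM in knockout and 681, 1406 and 5258 CPM in control males. Without Ighm and Igkc, immunoglobulin genes that made up most of this sum in every library but knockout male 2, the other 18 summed to 34.5, 13.2 and 24.8 CPM in knockout and 129, 119 and 109 CPM in control males.

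Blk, a Src-family kinase of the B cell receptor pathway, had 0.085, 0.036 and 0.11 CPM in knockout and 2.42, 2.20 and 1.67 CPM in control males. The knockout level of male 2 equals 3 counts, the floor of detection. The gene fell by 4.76 (log2, SE 0.43, adjusted p = 0.0400 in edgeR). Cd37, a tetraspanin of mature B cells, had 0.64, 0.30 and 0.72 CPM against 6.47, 5.93 and 5.61 CPM. All 3 knockout males were far below the controls, and the gene fell by 3.43 (log2, SE 0.34, adjusted p = 0.0456 in edgeR).

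Syk, the kinase that relays signals of the B cell receptor and of Fc receptors, is also made by other blood cells. Its levels were 4.59, 3.42 and 3.95 CPM in knockout and 10.1, 12.2 and 11.9 CPM in control males, without overlap. Its log2 level fell by 1.51 (SE 0.15, adjusted p = 0.0456 in edgeR). A further B cell gene had a larger difference than Syk with a wider error. Ighd, the heavy chain of IgD, had 0.32, 0.24 and 0.83 CPM against 10.8, 6.64 and 8.10 CPM, and did not pass (edgeR adjusted p = 0.102). Cd79a, the signalling chain of the B cell receptor, differed less, at -1.43.

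Antibody genes of plasma cells varied widely between animals of one group. Igkc, the kappa light chain, had 2049, 3.47 and 87.7 CPM in knockout and 205, 678 and 2357 CPM in control males, and the groups overlapped. The 13 plasma cell genes, a list added after the values were seen, summed to 5471, 291 and 348 CPM in knockout and 467, 1204 and 2770 CPM in control males, with a median log2 fold change of -0.13. Xbp1 made up most of this sum in knockout males 2 and 3 and in control male 1. It had 294, 260 and 279 CPM in knockout and 313, 301 and 295 CPM in control males. Of the 13, 3 had knockout values below every control, against 7.14% over all genes, which were Xbp1 and the IgG heavy chains Ighg2c and Ighg3. Ighg2c had 0.066, 0 and 0.74 CPM in knockout and 41.7, 625 and 421 CPM in control males (edgeR adjusted p = 0.332). Ighg3 had 0.29, 0 and 0.94 CPM against 2.41, 0.95 and 304 CPM.

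Genes of T and NK cells summed to lower levels in each knockout male than in any control. Of 23 tested, 21 were negative, 14 reached an unadjusted p under 0.05 in the lower direction, 1 in the higher, and 0 were called, with a median of -1.78. Over all genes 4.44% were lower and 3.75% higher at that p. The T and NK cell sum was 16.2, 3.95 and 9.58 CPM in knockout and 25.1, 27.0 and 35.04 CPM in control males. Cd2, an adhesion receptor of T cells, had 0.27, 0.12 and 0.34 CPM against 2.33, 2.33 and 2.37 CPM (log2 fold change -3.25, edgeR adjusted p = 0.102). Tcf7, a transcription factor of naive T cells, was at -2.50 (edgeR adjusted p = 0.115). Macrophage and myeloid genes had a smaller median difference, at -0.26. Their sum was 651 to 1104 CPM in knockout and 1045 to 1212 CPM in control males. At an unadjusted p under 0.05, 4 of 23 were lower, against 4.44% over all genes. Those 4 were Lyz2 (-1.49), Ptprc (-1.43), Laptm5 (-0.98) and Ly86 (-0.63), of which Ptprc, the common leukocyte antigen, and Laptm5 are made by lymphocytes too. The immune-cell genes Tbc1d10c at -2.60 and Arhgdib at -1.37 also had knockout values below every control, and neither passed.

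Promoters of the B cell genes Cd37 and Cd22 and of Syk, which is not on the B cell list, are shown because their knockout levels lay below every control. The letters searched were CACCTG on both strands, an E-box that E proteins of lymphocytes and acinar factors recognise, and the octamer ATTTGCAT, known from immunoglobulin genes; the 2 motifs share no overlap. Sequences cover 250 bases before to 50 after the start, from RefSeq on GRCm38.p6, in lower case with the E-box (CACCTG, or CAGGTG where it lies on the other strand) in capitals.
Cd37, chr7:45238790-45239089, minus strand: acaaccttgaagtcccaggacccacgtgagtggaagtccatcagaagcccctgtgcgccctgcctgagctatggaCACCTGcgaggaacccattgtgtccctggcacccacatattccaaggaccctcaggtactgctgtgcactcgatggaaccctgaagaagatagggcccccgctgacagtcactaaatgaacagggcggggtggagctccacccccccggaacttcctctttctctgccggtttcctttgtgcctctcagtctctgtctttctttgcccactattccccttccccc
Cd22, chr7:30878979-30879278, minus strand: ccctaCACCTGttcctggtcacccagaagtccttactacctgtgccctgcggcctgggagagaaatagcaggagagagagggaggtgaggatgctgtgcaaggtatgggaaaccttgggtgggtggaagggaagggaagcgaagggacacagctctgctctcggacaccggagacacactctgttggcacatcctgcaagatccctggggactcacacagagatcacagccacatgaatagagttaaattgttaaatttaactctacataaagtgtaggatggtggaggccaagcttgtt
Syk, chr13:52583187-52583486, plus strand, upstream of the listed starts: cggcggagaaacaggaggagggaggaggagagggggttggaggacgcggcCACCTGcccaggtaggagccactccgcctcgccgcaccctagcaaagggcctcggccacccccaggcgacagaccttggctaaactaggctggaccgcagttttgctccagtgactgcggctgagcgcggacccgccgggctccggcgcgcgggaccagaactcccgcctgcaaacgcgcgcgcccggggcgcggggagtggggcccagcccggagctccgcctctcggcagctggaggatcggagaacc
The E-box stood in 8 of 14 B cell promoters (57.1%), for 11 of the 20 genes with an entry. It stood in 9 of 17 T and NK cell promoters (52.9%), 12 of 24 acinar enzyme promoters and 6 of 28 beta cell identity promoters (21.4%), against 20.5% of all 31396 autosomal promoters. The octamer stood in 1 of 14 B cell promoters and 1.75% of all. A match describes the letters only and is neither a bound site nor a cause.

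The second large set was the exocrine pancreas. Of 31 tested acinar enzyme genes, 31 were negative, 29 had knockout values below every control, 29 reached an unadjusted p under 0.05, and 1, Try5, was called. Over all genes 7.14% had knockout values below every control and 4.44% were lower at that p. The acinar list had a median of -3.34, and it summed to 611, 945 and 2008 CPM in knockout and 5111, 15035 and 10377 CPM in control males. Try5, a trypsinogen, had 15.6, 18.1 and 23.1 CPM against 178, 322 and 206 CPM. No knockout value came near a control, and the log2 level fell by 3.64 (SE 0.28, adjusted p = 0.0400 in edgeR). Pnlip, pancreatic lipase, had 31.4, 75.3 and 141 CPM against 438, 1529 and 1039 CPM, a wider spread, and did not pass (log2 fold change -3.60, edgeR adjusted p = 0.373). Amy2a5, pancreatic amylase, was at -3.15 (edgeR adjusted p = 0.167) and Ctrb1, a chymotrypsinogen, at -3.53 (edgeR adjusted p = 0.400).

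Of 13 acinar regulators and membrane proteins, 7 were lower at an unadjusted p under 0.05, against 4.44% over all genes. Cckar, the cholecystokinin receptor of acinar cells, had 0.57, 0.31 and 0.79 CPM in knockout and 3.78, 3.36 and 3.65 CPM in control males (log2 fold change -2.69, edgeR adjusted p = 0.102). Gata4, also a gene of intestinal epithelium, stood against the list, with 3.62, 0.63 and 5.55 CPM in knockout and 0.46 to 0.57 CPM in control males. Acinar mRNA is carried over with islets, and its sum moved with the groups. The T and NK cell sum and the B cell sum without Ighm and Igkc did so too. With the mean log2 CPM of the acinar enzyme genes as a covariate no gene was called in edgeR (1493 at an unadjusted p under 0.05). The part of acinar carry-over in the other calls therefore cannot be told apart from genotype in these 6 animals. Scaling without the acinar genes left the same 8 calls.

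**Figure D3:**
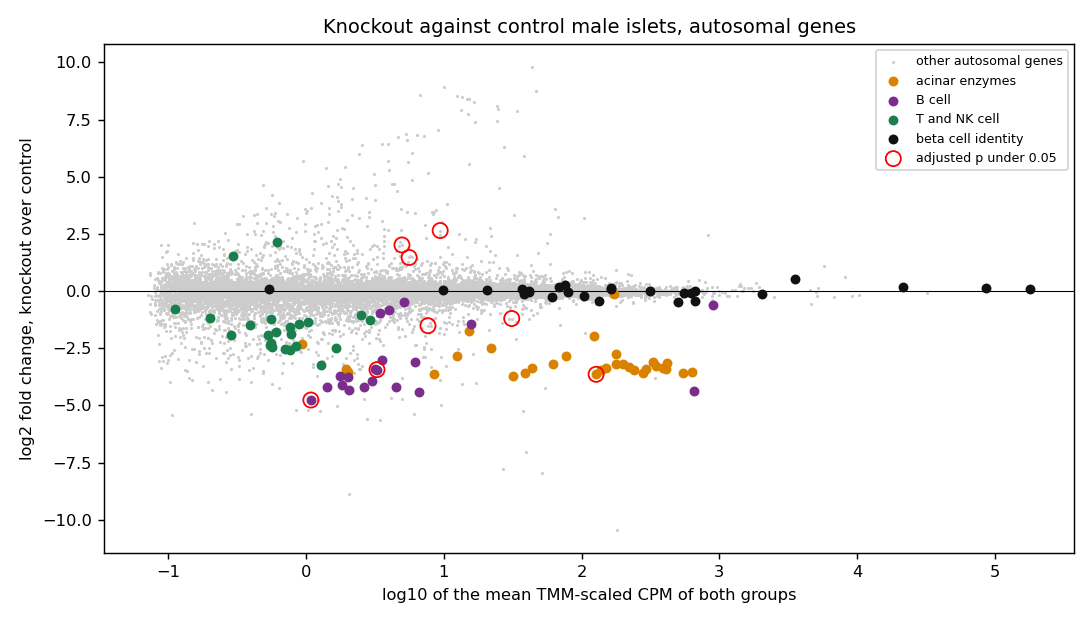
Log2 fold change, knockout over control males, against the log10 of mean TMM-scaled CPM for every autosomal gene tested (grey). Colours mark acinar enzyme, B cell, T and NK cell and beta cell identity genes, and red rings mark the 8 called genes. The acinar and B cell genes lie around -3.34 and -3.75, their list medians, while beta cell identity genes lie around 0.02.

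No islet hormone or beta cell factor passed the test. Of 26 tested beta cell identity genes 0 were called, and the median was 0.02. At an unadjusted p under 0.05, 1 was higher and 3 were lower, against 3.75% and 4.44% over all genes. For 1 all knockout libraries lay above all controls and for 3 below, against 5.83% and 7.14% over all genes. Ins1 had a log2 fold change of 0.12 (SE 0.10), Ins2 of 0.09 (SE 0.11) and Iapp, the amyloid peptide released with insulin, of 0.17 (SE 0.10). Gcg, glucagon, was at -0.09 (SE 0.21) and Sst, somatostatin, at -0.24 (SE 0.30). Ppy, pancreatic polypeptide, had 4354, 4252 and 2686 CPM in knockout and 6634, 4441 and 5404 CPM in control males, with no overlap but a narrow gap (log2 fold change -0.55, edgeR adjusted p = 0.585). The transcription factors Pdx1, Mafa, Nkx6-1, Nkx2-2, Neurod1 and Pax6 lay between -0.25 (Neurod1) and 0.27 (Pdx1), with overlapping groups for all 6.

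Of 33 genes of the insulin secretion machinery 0 were called, 15 were positive and 18 negative, and the median was 0.00. The knockout libraries lay above all controls for 3 of them and below for 4, against 5.83% and 7.14% over all genes. Scg2, secretogranin II of the hormone granules, had 8514, 9959 and 11229 CPM in knockout and 6621, 6524 and 5966 CPM in control males. It was higher in each knockout male than in any control, at a log2 fold change of 0.64 (SE 0.12), and did not pass (edgeR adjusted p = 0.231). Glp1r, the incretin receptor, had 471, 410 and 389 CPM against 540, 615 and 589 CPM (log2 fold change -0.46, edgeR adjusted p = 0.322). Slc2a2, the glucose transporter GLUT2, was at -0.42, Trpm5, a cation channel, at -0.42, Adcy5, an adenylyl cyclase, at -0.61 and Snap25, a protein of the fusion machinery, at -0.34, all with knockout values below every control and none called. G6pc2, the islet glucose-6-phosphatase, was at 0.52 with overlapping groups. Ucn3 (-0.08), Abcc8 (-0.03) and Kcnj11 (0.09), which serve mature beta cell function, overlapped between groups.

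Me3, a mitochondrial NADP-dependent malic enzyme, was next after the called genes in order of p. Knockout males had 7.55, 9.18 and 8.98 CPM and control males 3.93, 3.67 and 3.74 CPM, so the groups were well apart (log2 fold change 1.18, SE 0.13, edgeR adjusted p = 0.0701). Of 30 genes of malic enzyme and pyruvate cycling, 6 were higher and 0 lower at an unadjusted p under 0.05, against 3.75% higher over all genes, 0 were called, and the median was 0.03. Mdh2, mitochondrial malate dehydrogenase, had 210, 178 and 222 CPM against 162, 145 and 155 CPM (log2 fold change 0.40, edgeR adjusted p = 0.368). Me2, the NAD-dependent enzyme, was at 0.62 with overlapping groups. Of 60 oxidative phosphorylation genes 49 were positive, against 8474 of all 16798, with a median of 0.07. At an unadjusted p under 0.05, 4 were higher, led by Cyc1 at 0.31, and 0 lower, against 3.75% and 4.44% over all genes. For 8 all knockout libraries lay above all controls and for 0 below, against 5.83% and 7.14% over all genes.

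Further genes with small p were higher in all knockout males without passing. Smoc1, a secreted matrix protein, had 13.4, 13.2 and 15.01 CPM in knockout and 7.70, 5.95 and 5.95 CPM in control males (log2 fold change 1.09, edgeR adjusted p = 0.102). Dapl1 had 51.6, 57.8 and 67.3 CPM against 27.2, 30.7 and 22.6 CPM (1.14, adjusted p = 0.102 in edgeR). Mapk4, an atypical MAP kinase, stood at 1.03, Frmd5 at 0.82, Sall1, a zinc finger factor of development, at 0.89, Necab2, a calcium-binding protein, at 0.66, and Barx2, a homeobox factor, at 2.07 from low levels. On the lower side outside the immune and acinar lists stood Tmem123, a membrane mucin, with 37.2, 42.3 and 38.8 CPM against 60.04, 57.7 and 60.9 CPM (-0.59, adjusted p = 0.102 in edgeR). These genes were picked for groups without overlap, so that choice itself places knockout male 2 outside the range of the controls for each of them.

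Gm6969, a processed pseudogene on chromosome 12 (chr12:24638669-24639010), had the smallest p. Knockout males had 19.5, 20.4 and 16.7 CPM and control males 43.7, 42.5 and 43.9 CPM. Both groups were tight, and its log2 level fell by 1.20 (SE 0.09, adjusted p = 0.0400 in edgeR). Reads of a processed pseudogene can be shared with its parent gene, so its level is uncertain.

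Chromosome 7, which carries Cpeb1, held 4 of the 8 called genes and all 3 that rose, with 1315 of the 16798 tested genes. The lincRNA gene 2900076A07Rik lies 0.07 Mb from Cpeb1. It had 8.04, 8.62 and 8.06 CPM in knockout and 3.36, 2.77 and 2.80 CPM in control males, with little spread in either group, and rose by a log2 fold change of 1.47 (SE 0.14, edgeR adjusted p = 0.0403). Aldh1a3 is 14.92 Mb and Gm34225, another lincRNA, 33.6 Mb away. Gm34225 had 7.01, 6.83 and 10.1 CPM against 1.97, 2.22 and 1.73 CPM and rose by 2.02 (SE 0.21, edgeR adjusted p = 0.0470). Me3 lies 8.18 Mb away, and the B cell gene Cd37 36.1 Mb.

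The share of genes with an unadjusted p under 0.05 was highest beside Cpeb1. It was 34.5% within 1 Mb (10 of 29), 16.0% from 1 to 5 Mb (8 of 50), 12 of 63 from 5 to 15 Mb, 11.4% from 15 to 35 Mb (30 of 263) and 8.80% farther along chromosome 7 (80 of 909), against 7.98% on the other autosomes (1235 of 15483). Within 1 Mb 4 were higher and 6 lower. Sh3gl3, an endophilin of endocytosis, had 1.11, 0.93 and 1.03 CPM in knockout and 0.12, 0.31 and 0.36 CPM in control males (log2 fold change 1.94, edgeR adjusted p = 0.275). Hddc3, a phosphohydrolase, had 15.7, 14.9 and 15.6 CPM against 10.4, 10.2 and 9.48 CPM (0.62, adjusted p = 0.102 in edgeR). Arnt2, a bHLH-PAS transcription factor, was at -1.12, Zfp592 at -0.24, and Ap3b2, an adaptor subunit of neurosecretory cells, at 0.25, each without overlap. Anpep, an aminopeptidase also abundant in intestinal epithelium, was at 0.93 and high only in knockout males 1 and 3. DNA inherited together with the knockout allele and the loss of Cpeb1 itself cannot be told apart in this design.

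**Figure D4:**
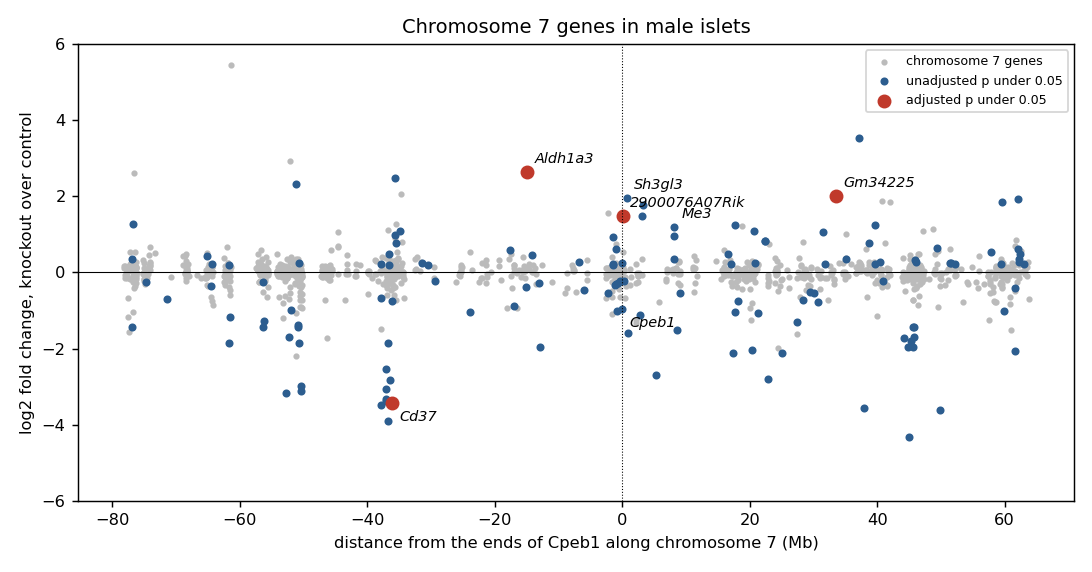
Log2 fold change, knockout over control males, of chromosome 7 genes against their distance from Cpeb1 in Mb. Blue points have an unadjusted p under 0.05 and red points were called, and 4 genes beyond the axis limits of 6 are not drawn. All 3 called genes above 0 are labelled, at 0.07, 14.92 and 33.6 Mb.

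Genes with a CPE near the end of the 3 prime UTR had the same median difference as genes without one, to 2 decimals. The motifs TTTTAT or TTTTAAT, which can overlap, were searched on the sense strand in the last 150 bases of the longest annotated 3 prime UTR. Of 13587 tested genes with such a UTR of at least 150 bases, 3300 (24.3%) held 1 or more. Among these 0 were called by edgeR, 262 (7.94%) had an unadjusted p under 0.05, 129 higher and 133 lower, and the median log2 fold change was 0.000. Among the 10287 without, 4 were called, 9.05% had an unadjusted p under 0.05, and the median was 0.004. Of 25 tested mRNAs reported as CPEB1 targets 0 were called, and the median was -0.04. Camk2a was at -1.35, Trp53 at -0.64, Stat3 at -0.24 and Vegfa at 0.23, which are those at an unadjusted p under 0.05. The motif was also searched gene by gene in 27 genes that have an annotated 3 prime UTR. These were drawn from Cpeb1, called genes and those of smallest p, genome-wide or near Cpeb1. Not every gene of small p named in the text was searched. The motif stood in the last 150 bases of 4 of the 27, shown with each CPE of the printed stretch in capitals, of which Barx2 has 2.
Smoc1: ttgtagcttgTTTTATaaaaaataaaaa
Barx2: aacTTTTATtTTTTAATtaaaaatacat
Tmem123: tggcaacataTTTTATggtgtggtaatt
Zfp592: atatatctatTTTTAATacaaacagtag
Smoc1 and Barx2 were the higher and Tmem123 and Zfp592 the lower in knockout males, with none of the 4 called. A matching motif is a description of the sequence and does not show binding.

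The same 8 genes were set beside females of the line (Cpeb1 KO/KO of 188, 165 and 98 days, Cpeb1 +/+ of 188, 188 and 109 days). All but Blk were also set beside males of a line with deletion directed to beta cells (Cpeb1 flx/flx with Ins1-Cre/+ and Cpeb1 +/+ with Ins1-Cre/+, aged 111 and 80 days in each group, batch 2). Both sets held a library that stood apart: control female 1, in which the ribosomal RNA gene Rn18s took 60.5% of the counts, and beta-cell knockout male 1, in which the Y-linked Ddx3y had 11.7 CPM against 34.7 to 36.9 CPM in the other 3 males. The male minus female difference was fitted over 12 libraries and called 0 of 17671 autosomal genes in edgeR, with 1900 at an unadjusted p under 0.05 (10.8%), 454 called by DESeq2 and 0 by limma-voom. 2900076A07Rik had 5.12, 5.33 and 5.08 CPM in knockout and 1.92, 1.91 and 1.96 CPM in control females. Its female log2 fold change was 1.42 (SE 0.13, edgeR adjusted p = 0.00683), and the male minus female difference was 0.07 (95% interval -0.34 to 0.47). Aldh1a3 overlapped between the female groups. Knockout females had 2.31, 2.34 and 2.62 CPM and control females 1.52, 2.24 and 2.47 CPM, a log2 fold change of 0.20 (SE 0.23), and the difference between sexes was 2.46 (95% interval 1.76 to 3.17, edgeR adjusted p = 0.120), and 2.60 without control female 1.

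Blk, Cd37 and Syk had positive log2 fold changes in females, and none passed (edgeR adjusted p = 0.444 for each). Knockout females had 0.88, 4.72 and 2.27 CPM of Blk and control females 0.40, 0.45 and 1.21 CPM. The groups overlapped for Blk and Cd37 and not for Syk. Blk was at 1.89 (SE 0.61) in females, and the male minus female difference was -6.63 (95% interval -8.67 to -4.59, edgeR adjusted p = 0.120). Cd37 was at 1.68 (SE 0.61) and Syk at 1.34 (SE 0.41) in females, with differences of -5.10 and -2.83 (edgeR adjusted p = 0.299 for both). Without control female 1 the 3 differences were -6.40, -4.81 and -2.70. Try5 was at -2.57 (SE 1.06) in females and did not pass there (edgeR adjusted p = 0.444). Its female groups overlapped, with 125, 46.9 and 16.3 CPM in knockout and 218, 870 and 29.6 CPM in controls, and the difference between the sexes was -1.04. Gm6969 was at -0.20 (SE 0.30) in females with overlapping groups, and its difference was -0.98 (95% interval -1.92 to -0.03, edgeR adjusted p = 0.439). It had 19.6, 19.7 and 37.0 CPM in knockout and 20.5, 22.8 and 43.9 CPM in control females, so it varied widely within each genotype. Gm34225 was at 1.18 and Me3 at 0.66 in females, and the differences, 0.86 and 0.54, did not pass. Cpeb1 itself differed by -0.01 between the sexes (95% interval -0.63 to 0.62).

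Against the male beta-cell line, with 2 knockout and 2 control animals, the difference between knockout effects was called for 8 of 16146 autosomal genes (0.0495%), with 4.13% at an unadjusted p under 0.05. Line and batch coincide, so only the effects within each line were compared. Aldh1a3 had 5.16 and 5.14 CPM in beta-cell knockout and 7.87 and 4.85 CPM in their controls, and the difference of the effects was 2.94 (SE 0.38, edgeR adjusted p = 0.0484). Syk differed by -1.95 (SE 0.25, edgeR adjusted p = 0.0484) and Gm6969 by -1.61 (SE 0.17, edgeR adjusted p = 0.0372). Gm6969 was low in the beta-cell line, with 0.94 and 0.85 CPM in knockout and 0.68 and 0.66 CPM in control males. Whole-body control males had 42.5 to 43.9 CPM. 2900076A07Rik was at 1.05 (SE 0.16) in the beta-cell line, with 6.08 and 6.02 CPM in knockout and 3.04 and 2.79 CPM in control males, and the difference of 0.41 did not pass (95% interval -0.05 to 0.87). Gm34225 was at -0.78 there, and the difference of 2.79 missed the threshold (edgeR adjusted p = 0.0787). Cd37 differed by -4.88 (edgeR adjusted p = 0.0525) and Try5 by -3.77 (SE 1.52), and neither passed. Blk was not among the genes tested in this fit. Leaving out any single control male of the whole-body line, or any single beta-cell library, ended all 8 of these calls. Without beta-cell knockout male 1 the difference of Aldh1a3 was 2.94, of Syk -1.74, of Gm6969 -1.54, of Cd37 -5.21 and of Try5 -0.08.

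**Figure D5:**
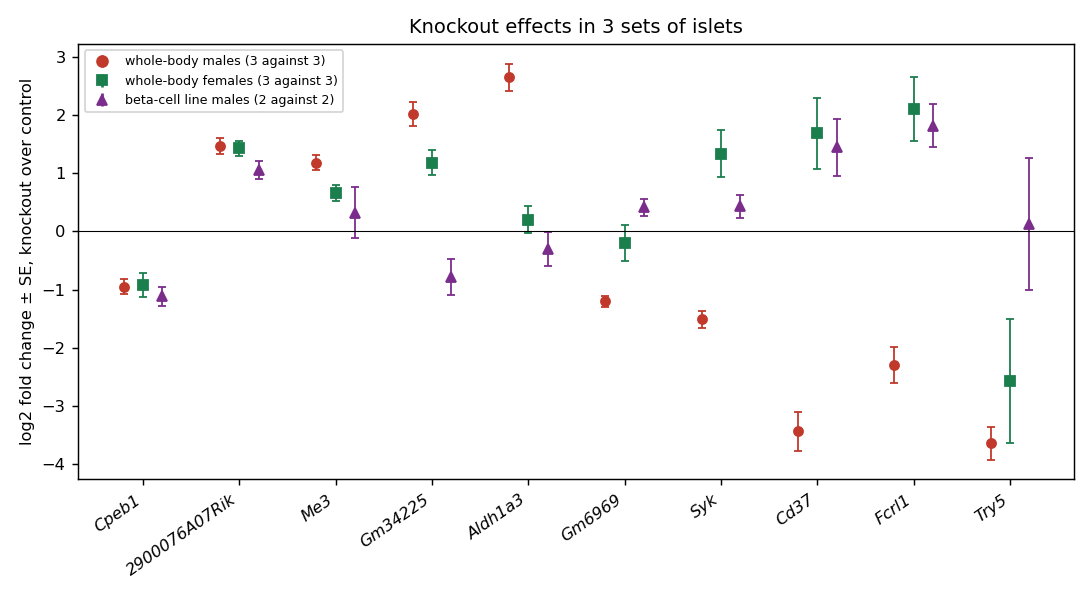
Log2 fold change ± SE, knockout over control, of 10 genes in whole-body males (red circles, fit of 6 libraries), whole-body females (green squares, fit of 12) and males of the beta-cell line (purple triangles, fit of 10). Cpeb1 and 2900076A07Rik lie on the same side of 0 in all 3 sets, while Aldh1a3 is at 2.65 in whole-body males and at 0.20 and -0.30 in the others.

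No gene was called in the remaining lists, whose counts stand against 3.75% of all genes higher and 4.44% lower at an unadjusted p under 0.05. Cell cycle genes had a median of -0.10 with 0 of 26 at an unadjusted p under 0.05, unfolded protein response genes 0.07 with 1 of 25, and immediate early and isolation stress genes 0.03 with 4 of 25. Sterol synthesis genes had a median of -0.16, and 4 of 22 were lower at an unadjusted p under 0.05, among them Hmgcs1 at -0.35. Of 24 interferon and antigen presentation genes 3 were lower, H2-D1 (-0.32), H2-K1 (-0.25) and B2m (-0.49), and Mx1 was higher. Genes of alpha cells, with a median of -0.08 over 10 tested, and of endothelium, with 0.08 over 19, had 0 at that p. Duct genes had a median of 0.31, and Cftr, also made by intestinal epithelium, had 4.02, 0.34 and 7.94 CPM in knockout and 0.19 to 0.35 CPM in control males. Of 13 genes of Schwann cells and nerves 12 had a negative log2 fold change, with a median of -0.84, 4 were lower at an unadjusted p under 0.05, and 2 had knockout values below every control, while the 22 stellate and mesenchymal genes had a median of -0.32 with 2.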

How the data were processed

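RNA of 6 male islet libraries was analysed. The submitters' processing notes name STAR 2.5.3a and RSEM 1.3.0 with the build mm10. What the authors deposited are expected counts per gene, whole numbers with no scaling for depth. The annotation, the strand setting and any use of molecular indexes were not given in the sources used here. GENCODE M21 (GRCm38) supplied symbols and positions and held 94.1% of the identifiers.

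Genes passing filterByExpr were fitted with 1 mean per group after TMM scaling, using the robust quasi-likelihood test of edgeR 4.0.16 (R 4.3.3). P-values were adjusted over all 17440 genes (Benjamini-Hochberg), and a gene was called under 0.05. The biological coefficient of variation was 0.305. Differences from females used 12 libraries and from beta-cell males 10. Intervals are at 95% confidence, and the CPM floor of 3 counts per library covers counting error only. DESeq2 1.42.0 and limma 3.58.1 served as alternatives. The fit was tested on simulated data. Per the labels each library came from 1 animal, and no replicate pair was a copy (chi-square per degree of freedom from 85.2 to 370).

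The text names Cpeb1, called genes, up to 12 genes per direction with the smallest p, no overlap and a mean of at least 1 CPM, up to 10 within 5 Mb of Cpeb1, an islet and CPEB panel, leading members of 28 lists, and members of counts of 5 or fewer. Some that qualified are given only as counts. The genes, lists and tests were chosen with earlier results of these data known. The intestinal and plasma cell lists, and genes named from them, were added after their values were seen.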

Additional observations from a re-analysis of the deposited data

Results flagged for a closer look

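The knockout effect differed between whole-body males and males of the beta-cell line, by a test of the difference itself, for 8 genes (edgeR, adjusted p between 0.0372 and 0.0484). The whole-body effect was above the beta-cell effect, on the log2 scale, by 2.94 for Aldh1a3 and by 4.34 for Rps13-ps2, a ribosomal protein pseudogene. It was below it for the immune genes Ighd (-8.01), Fcrl1 (-4.11), Ikzf1 (-3.20) and Syk (-1.95), for the pseudogene Gm6969 (-1.61) and for Prodh2 (-13.04). Gm6969 had only 0.66 to 0.94 CPM in the beta-cell line. In the beta-cell line alone the log2 fold changes were 3.80 for Ighd, 1.81 for Fcrl1 and 1.19 for Ikzf1, none of which passed there (edgeR adjusted p from 0.676 to 1.00), against -4.21, -2.30 and -2.01 in whole-body males of the same fit. Rps13-ps2 had 0.13 and 0.068 CPM in its knockout and 1.87 and 1.84 CPM in its control males, and its log2 fold change was 0.08 in whole-body males. Prodh2 had 7.60 and 4.20 CPM in beta-cell knockout males and 0 in both controls, so the size of its difference depends on the prior count and is no measure of the fold.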

How the results depend on the processing

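The count of 8 called genes was 8 with RLE scaling, with autosomal genes alone and with scaling without acinar genes, and 9 with a minimum of 1 CPM in 3 libraries. It was 462 with DESeq2, 2 with limma-voom, 22 with no filter, 4 in the fit of 12 libraries, 83 with age as a covariate, 0 with the acinar mean log2 CPM as a covariate, and 0 to 492 with 1 library left out. Leaving out knockout males 1 and 3 together, chosen after seeing the data, gave 352 calls with 7 of the 8 kept, and the lone knockout library was assumed to vary like the controls. Same-numbered knockout and control males had deviations that correlated at -0.26, -0.07 and -0.19, so the numbers do not pair the animals. With the replicate block 0 genes were called.

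Cpeb1 passed with DESeq2 (-0.95), with no filter (-0.93) and with age as a covariate (-0.80), and ranged from -1.10 to -0.86 with 1 library left out, passing without knockout male 2. The male minus female count was 454 with DESeq2 and 0 to 3 with 1 library left out. The count of differences from the beta-cell line was 108 with DESeq2, 0 with limma-voom, 4 with RLE scaling and 0 to 65 with 1 library left out. The causes were not tested.

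Signs turned for values that had not passed. With the acinar covariate the log2 fold change was 0.076 for Cpeb3, 0.50 for Cpeb4, 0.076 for Ctrb1, -0.11 for Ins2, 0.20 for Neurod1, 0.060 for Hmgcs1 and -1.07 for Mx1. With age it was 0.099 for Gcg, 0.043 for Mafa, 0.14 for Nkx2-2 and 0.035 for Abcc8. With knockout males 1 and 3 left out it was 0.35 for Gcg, 0.24 for Sst, 0.17 for Mafa, 0.24 for Nkx2-2, 0.053 for Neurod1, 0.10 for Ucn3, 0.12 for Abcc8 and -2.93 for Lrat. Cpeb2 was at -0.016 with limma-voom and -0.002 with the minimum of 1 CPM. With 1 library left out the values ran from -0.065 to 0.14 for Cpeb2, -0.24 to 0.023 for Cpeb4, -4.56 to 0.71 for Igkc, -0.36 to 0.065 for Gcg, -0.54 to 0.025 for Sst and -0.42 to 0.13 for Mafa. They ran from -0.066 to 0.24 for Nkx6-1, -0.17 to 0.10 for Nkx2-2, -0.17 to 0.088 for Ucn3, -0.097 to 0.026 for Abcc8 and -0.0082 to 0.17 for Kcnj11. The male minus female difference ran from -0.030 to 0.16 for 2900076A07Rik and from -0.17 to 0.11 for Cpeb1, and the difference of Me3 from the beta-cell line from -0.25 to 1.49.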
